A study of Homo sapiens with 8 samples.

Results

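The histone genes described here are 76 of 21357 gene symbols on an Affymetrix U133 Plus 2.0 array, and 108 of its 54613 probe sets read them, control probe sets left out. A probe set is a group of short probes that together give 1 value for a transcript. A probe set was taken when the platform's annotation gave it a symbol of a core or linker histone gene, by its present name or by an older name. Of the probe sets, 28 list several histone genes. They are kept, and are called here by their probe set number and not by a gene.

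The arrays measured RNA of HT1080, a human fibrosarcoma cell line, under 8 conditions with 1 array each, all after 18 h. In 4 conditions the medium held 10 mM 2-deoxy-D-glucose (2DG), a glucose analogue that blocks glycolysis and mimics low glucose: 2DG with 10 µM compound C (2DG+CC), 2DG with 10 µM versipelostatin (2DG+VST), 2DG with 100 µM phenformin (2DG+Phen), and 2DG alone. The other 4 were CC, VST and Phen, which are the same doses of the compounds without 2DG, and untreated cells (Control). Compound C inhibits several protein kinases, among them AMPK. Versipelostatin is a large ring-shaped molecule made by a bacterium, and phenformin, a biguanide, acts on mitochondrial respiration. The study asked how they act on the response to glucose deprivation. With 1 array in a condition no difference given here has an error, a test or a replicate check, and the number of arrays limits the precision.

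Histones H2A, H2B, H3 and H4 form the core around which DNA is wound, and linker histone H1 binds where the DNA enters and leaves it. Most of their genes are replication-dependent: they lie in clusters, are transcribed in S phase when new DNA has to be packed, and their mRNAs end in a stem-loop in place of a poly-A tail. Replication-independent genes encode variants such as H2A.Z, macroH2A and H3.3, which are made through the cell cycle from ordinary polyadenylated mRNAs. Labelling for arrays of this kind commonly starts from the poly-A tail, so a signal of a replication-dependent gene may come from the polyadenylated part of its transcripts, and the arrays do not separate that part from the rest.

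The values are log2 intensities made by the authors with RMA, which subtracts background, brings all arrays to a common distribution and merges the probes that make up a probe set. A difference is the log2 value of one array minus that of another, so that 1 stands for 2-fold. A probe set was called expressed at a log2 value of 6 or more on at least 1 array, and higher or lower from a 2-fold difference. Of the 108 histone probe sets, 42 were expressed, and of all probe sets 15503. A value that did not exceed its array's median, 3.12 to 3.28 with the control probe sets left out, was taken as not above background, and a difference that starts from it is given as at least its size. On all 8 arrays 27 histone probe sets were not above background. Of 77 replication-dependent probe sets 21 were expressed, 15 of which already reached 6 on the Control array, and of 31 replication-independent ones 21 were expressed. Among the expressed, 18 have numbers ending in _x_at, the mark of probes that may also bind related transcripts, so near-identical histone genes may share signal.

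The cell line's label fits its markers in that 8 of 10 mesenchymal genes were expressed, with 2 of 7 epithelial genes (KRT8 and KRT18) and 1 of 4 blood genes. The blood gene, HBB, read by an _x_at probe set, had 5.11 on the Control array and differed from 2DG by 1.22 in 2DG+CC, 0.77 in 2DG+VST and 0.88 in 2DG+Phen. The median over the poly-A control probe sets, which read bacterial transcripts meant to be added before labelling, was above Control's by 1.36 in 2DG+CC, 0.93 in 2DG+VST and 0.76 in 2DG+Phen, against 0.33 in 2DG. It was above Control's by 0.12 in CC, 0.01 in VST and 0.30 in Phen. The hybridization control probe sets, a separate set of added controls, were above Control as well. Their median difference was 0.75 in 2DG+CC, 0.53 in 2DG+VST and 0.58 in 2DG+Phen, against 0.21 in 2DG. How much of the poly-A difference they share was not tested, so that difference cannot be read as an amount of mRNA. Whether the control signals bear on the histone differences was not tested either. The counts of both histone classes are also given after scaling on the poly-A controls.

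The region before the start of a histone gene carries short motifs that differ between the classes. The promoters of 4 genes described below are shown because their signals differed: H2AC8 and H1-2 were more than 2-fold higher in 2DG+VST and in 2DG+Phen than in 2DG, H2AC6 was more than 2-fold lower in 2DG+Phen, and H2AX belongs to the other kind. Each is the 250 bases before the gene's start, written 5′ to 3′ along the gene's strand, from RefSeq on GRCh38.p14. Capitals mark CCAAT, the octamer ATTTGCAT, TATAAA and the H1 box AAACACA, on either strand.
H2AC8 (chr6:26216671-26216920, plus strand): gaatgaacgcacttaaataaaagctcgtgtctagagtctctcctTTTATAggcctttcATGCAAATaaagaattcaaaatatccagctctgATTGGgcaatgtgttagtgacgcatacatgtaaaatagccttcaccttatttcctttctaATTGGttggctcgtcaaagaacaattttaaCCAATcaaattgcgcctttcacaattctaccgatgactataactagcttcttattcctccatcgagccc
H1-2 (chr6:26056471-26056720, minus strand): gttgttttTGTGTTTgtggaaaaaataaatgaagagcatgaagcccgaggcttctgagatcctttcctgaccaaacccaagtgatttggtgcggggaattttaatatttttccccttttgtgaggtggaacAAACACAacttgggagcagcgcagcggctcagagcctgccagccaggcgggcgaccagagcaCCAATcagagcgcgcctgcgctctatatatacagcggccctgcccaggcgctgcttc
H2AC6 (chr6:26123922-26124171, plus strand): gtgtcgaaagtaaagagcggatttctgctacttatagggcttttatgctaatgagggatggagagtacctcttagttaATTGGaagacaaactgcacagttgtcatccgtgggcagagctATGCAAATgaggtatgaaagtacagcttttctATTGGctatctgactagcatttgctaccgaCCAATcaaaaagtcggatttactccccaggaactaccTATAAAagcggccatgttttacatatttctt
H2AX (chr11:119095466-119095715, minus strand): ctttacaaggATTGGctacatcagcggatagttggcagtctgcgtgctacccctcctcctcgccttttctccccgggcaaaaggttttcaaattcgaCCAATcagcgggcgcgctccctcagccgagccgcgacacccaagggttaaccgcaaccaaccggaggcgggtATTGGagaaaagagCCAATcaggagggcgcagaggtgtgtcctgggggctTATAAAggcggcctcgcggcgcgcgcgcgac

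The H2AC8 promoter held 3 CCAAT motifs and an octamer, and its TATAAA match ran on the other strand, towards the neighbouring H2B gene. In H2AC6 the same kinds of motif were present, with TATAAA starting 31 bases before the start. H1-2 held 2 H1 boxes and 1 CCAAT motif. Of the 76 histone genes 67 matched a RefSeq promoter. CCAAT stood in 33.0% of all 27305 promoters. Among the replication-dependent genes it stood in all 8 H1, 13 H2A, 16 H2B and 9 H3 promoters, and in 3 of 13 H4 promoters. The octamer stood in 1.66% of all promoters, in 8 of 13 for H2A and 13 of 16 for H2B, in 1 of 9 for H3, and in none for H1 or H4. The H1 box stood in 4.95% of all promoters, in 7 of 8 for H1 and in none of the other histone classes. TATAAA stood in 11.1% of all promoters and in 37 of 59 of the replication-dependent ones. These matches describe the letters of the window and are not shown to be bound. H2AC8 and H2AC6 both hold the octamer and CCAAT, and their differences in 2DG with a compound had opposite signs. The 2 genes were chosen by their signals, and whether the motifs bear on the differences was not tested.

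No replication-dependent histone probe set passed 2-fold in 2DG without a compound. Over the 21 expressed ones the median difference from Control was −0.42, where that of all expressed probe sets was 0.01. The background was 3.19% of all expressed probe sets higher and 2.53% lower. The differences ran between −0.91, for an H4 probe set, and 0.64, for H2AC25, and 3 of the 21 were above 0. On 2DG lay the lowest value of the 8 arrays for 11 of the 21 probe sets. Scaled on the poly-A controls, 2 of the 21 were lower and none higher, with a median of −0.75, where all expressed probe sets had −0.32, 1.41% of them higher and 6.75% lower.

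With the compounds in normal medium, 1 of them passed 2-fold. In CC none of the 21 was called either way, with a median of −0.09 and a background of 4.32% higher and 2.86% lower. VST had 1 lower and none higher, with a median of −0.28 and a background of 2.86% higher and 3.37% lower. Phen had none called, with a median of 0.09 and a background of 2.75% higher and 3.09% lower. The probe set lower in VST was 206110_at, which lists 10 H3 genes, at 3.53 in VST against 4.84 in Control. Under the limit of 6, the H2B gene H2BC4 (236193_at) had 4.27 in CC against 2.72 in Control, which is not above background, so the difference was at least 1.12. Its other arrays were between 2.26 and 3.01. Scaled on the poly-A controls, the counts of the 21 stayed at none in CC, 1 lower in VST and none in Phen, with medians of −0.21, −0.29 and −0.21, where those of all expressed probe sets were −0.09, −0.02 and −0.34.

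More replication-dependent histone probe sets were 2-fold higher in 2DG+CC and in 2DG+VST than in 2DG alone, and fewer in 2DG+Phen. In 2DG+CC 13 of the 21 expressed probe sets were at least 2-fold higher and 0 lower. Their median difference was 1.10, where all expressed probe sets had −0.13. The background was 11.0% higher and 23.0% lower. In 2DG+VST 12 were higher and 1 lower, with a median of 1.38 against −0.11 for all expressed probe sets, and a background of 6.95% higher and 18.3% lower. In 2DG+Phen 4 were higher and 2 lower, with a median of 0.39 against −0.19, and a background of 7.35% higher and 20.2% lower. These comparisons share the 2DG array, so they are not independent of each other. That array held the lowest value of the 8 for 11 of the 21 probe sets. No count was taken of 2DG with a compound against Control. The highest value of the 8 arrays lay on 2DG+VST for 13 of the 21 probe sets and on 2DG+CC for 4. Of the 21, 6 reached a log2 value of 6 only in 2DG with a compound. Their highest value had to lie on one of those arrays. Probe sets of near-identical genes are not independent of each other either: of the 42 expressed histone probe sets of both classes, 34 have numbers ending in _s_at, _x_at or _a_at or list several symbols. Of the 8 that read 1 transcript, 1 was higher in 2DG+CC, 4 in 2DG+VST and 3 in 2DG+Phen, with none lower.

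**Figure D1:**
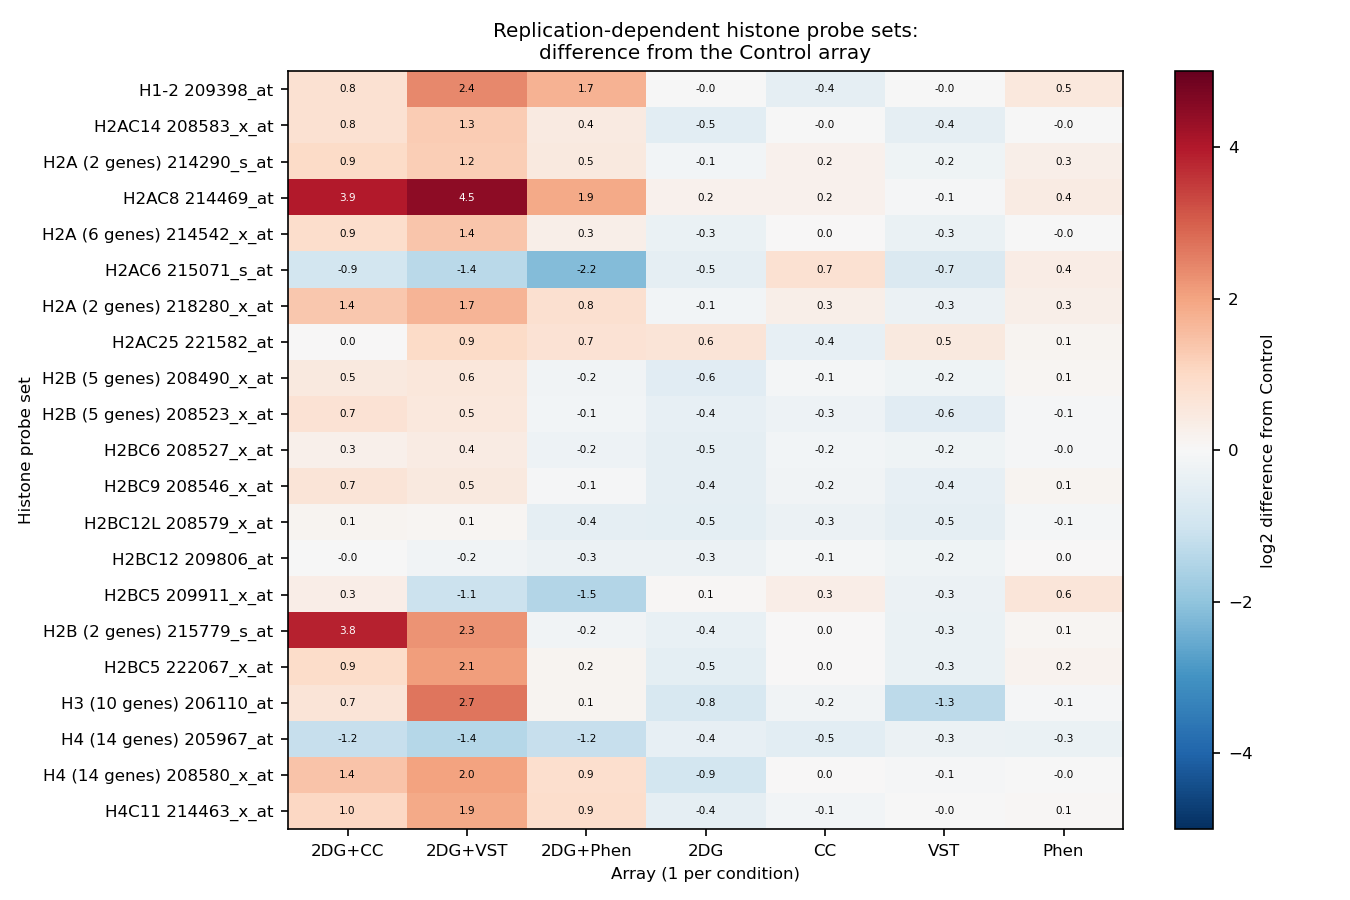
Log2 difference of each of the 21 expressed replication-dependent histone probe sets from the Control array (colour and printed value), with 1 column per array and 1 row per probe set. The H2AC8 row stands out in 2DG+CC and 2DG+VST, with levels of 6.85 and 7.37 against 2.90 in Control, while H2AC6 and an H4 probe set are below 0 in all 3 columns of 2DG with a compound.

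A probe set can reach the limit of 6 only through the treated arrays, as 6 of the 21 did. Among the 15 that reached it on Control, 7 were higher and none lower in 2DG+CC, 6 were higher and 1 lower in 2DG+VST, and 1 was higher and 2 lower in 2DG+Phen. No share over all probe sets was taken at this limit, so these counts have no background beside them. Over all 77 replication-dependent probe sets, whatever their level, 25 were higher and none lower in 2DG+CC, where 4.93% of all 54613 probe sets were higher and 9.36% lower. In 2DG+VST 24 were higher and 1 lower, where 3.18% of all were higher and 7.53% lower. In 2DG+Phen 6 were higher and 2 lower, where 3.26% of all were higher and 8.36% lower.

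These counts were lower once the poly-A controls set the scale, most of all for compound C. In 2DG+CC 3 of the 21 expressed probe sets were then higher and 3 lower, with a median of 0.06, where all expressed probe sets had −1.17, 2.85% of them higher and 58.2% lower. In 2DG+VST 10 were higher and 3 lower, with a median of 0.78, where all had −0.71, 3.12% higher and 36.5% lower. In 2DG+Phen 3 were higher and 3 lower, with a median of −0.04, where all had −0.63, 4.08% higher and 33.5% lower. When each array was centred on the median of its expressed probe sets instead, 14, 15 and 7 were higher and 0, 0 and 2 lower in 2DG+CC, 2DG+VST and 2DG+Phen. Of all expressed probe sets 15.1%, 10.6% and 11.5% were then higher and 18.9%, 13.6% and 14.3% lower. The counts of histone probe sets called in 2DG+CC therefore depended on the scaling. Each scaling takes the same amount from every probe set in a comparison. It therefore cannot change the gap between the histone median and that of all expressed probe sets.

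**Figure D2:**
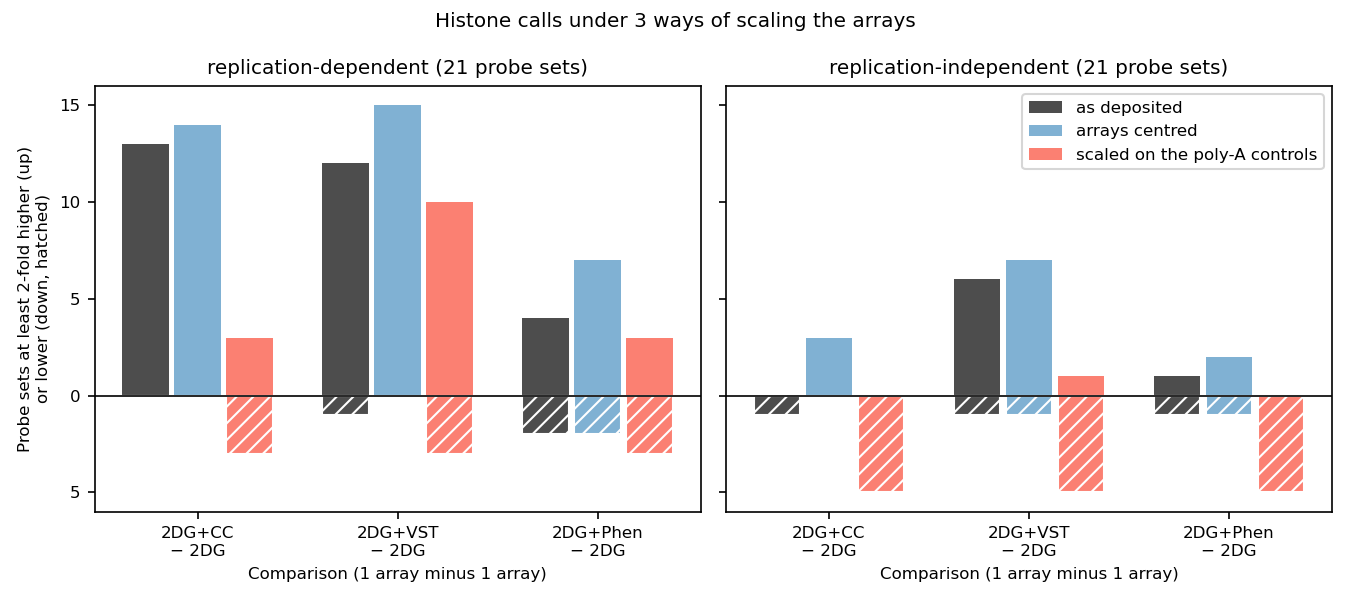
Number of expressed histone probe sets at least 2-fold higher (bars up) or lower (hatched bars down) in 2DG with each compound than in 2DG alone, for 3 ways of scaling the arrays, with 21 replication-dependent probe sets on the left and 21 replication-independent ones on the right. The replication-dependent count for 2DG+CC is 13 as deposited and 3 after scaling on the poly-A controls, and that for 2DG+VST is 12 and 10.

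Linker histone H1 was read by 12 probe sets grouped here as replication-dependent, of which 1 was expressed. H1-10, an expressed linker histone grouped with the replication-independent variants, is described with them. It differed from 2DG by 0.13 in 2DG+CC, −0.62 in 2DG+VST and −0.48 in 2DG+Phen. H1-2, a somatic H1 subtype, had 9.46 in 2DG+CC, 11.08 in 2DG+VST and 10.41 in 2DG+Phen, against 8.66 in 2DG. It had 8.24 in CC, 8.67 in VST and 9.20 in Phen, against 8.68 in Control. The 2 highest arrays were thus 2DG+VST and 2DG+Phen, with differences from 2DG of 2.41 and 1.75, while 2DG+CC differed by 0.80. H1-4, another somatic subtype, stayed under 6 on all arrays and had 4.98, 5.10 and 4.80 in 2DG+CC, 2DG+VST and 2DG+Phen, against 2.97 in 2DG. Since the 2DG value was not above background, H1-4 was higher by at least 1.86, 1.97 and 1.67 on these arrays. Unlike H1-2, H1-4 was at a similar level with each of the 3 compounds.

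Core histone H2A, its replication-independent variants left out, had 7 expressed probe sets of 16. H2AC8 had 6.85 in 2DG+CC, 7.37 in 2DG+VST and 4.78 in 2DG+Phen, against 3.12 in 2DG. It had 3.11 in CC, 2.84 in VST and 3.31 in Phen, against 2.90 in Control. Only Phen, of the arrays other than 2DG with a compound, was above background, and the differences from 2DG were at least 3.73, 4.24 and 1.66. A pair of probe sets listed the same 2 H2A genes, and of these 218280_x_at had 11.19 in 2DG+CC, 11.54 in 2DG+VST and 10.65 in 2DG+Phen, against 9.71 in 2DG. Its partner 214290_s_at differed from 2DG by 1.09, 1.38 and 0.64 in the same order of arrays, so that both moved the same way at unlike sizes. H2AC14 (208583_x_at) differed from 2DG by 1.29 in 2DG+CC, 1.77 in 2DG+VST and 0.96 in 2DG+Phen, and 214542_x_at, which lists 6 H2A genes, by 1.23, 1.72 and 0.64.

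H2AC6 and H2AC25 did not share this pattern. H2AC6 had 6.40 in 2DG+CC, 5.96 in 2DG+VST and 5.15 in 2DG+Phen, against 6.87 in 2DG. It had 8.07 in CC, 6.59 in VST and 7.68 in Phen, against 7.32 in Control. The 3 arrays of 2DG with a compound were its lowest, and the difference from 2DG passed 2-fold in 2DG+Phen, at −1.72. H2AC25 had 7.14 in 2DG+CC, 8.06 in 2DG+VST and 7.84 in 2DG+Phen, against 7.76 in 2DG, and was called in no comparison.

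Core histone H2B had 9 expressed probe sets of 20. The largest difference was that of 215779_s_at, which lists 2 H2B genes, with 6.72 in 2DG+CC, 5.13 in 2DG+VST and 2.71 in 2DG+Phen, against 2.51 in 2DG. It was at or below 2.97 on the other 4 arrays. The signal was therefore above background on 2 arrays alone, higher than 2DG by at least 3.59 in 2DG+CC and at least 2.00 in 2DG+VST. Below the limit of 6, 210387_at, another H2B probe set of several genes, had 5.04 in 2DG+CC, 3.08 in 2DG+VST and 2.31 in 2DG+Phen, against 2.50 in 2DG. It was above background in 2DG+CC and not on the other arrays, so the difference was at least 1.92.

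The 2 probe sets of H2BC5 disagreed. By 222067_x_at H2BC5 had 8.29 in 2DG+CC, 9.45 in 2DG+VST and 7.51 in 2DG+Phen, against 6.87 in 2DG. By 209911_x_at it had 6.51 in 2DG+CC, 5.11 in 2DG+VST and 4.72 in 2DG+Phen, against 6.24 in 2DG. The differences in 2DG+VST were thus 2.58 by one probe set and −1.13 by the other, and no direction can be given for H2BC5. The files do not say which part of the transcript each probe set reads, and whether the 2 read different transcript ends was not tested. H2BC12 (209806_at) had 10.95 in 2DG+CC, 10.82 in 2DG+VST and 10.71 in 2DG+Phen, against 10.70 in 2DG. It was 10.88 in CC and 10.75 in VST, against 10.99 in Control, and passed 2-fold in no comparison. The other 5 H2B probe sets, all _x_at, differed from 2DG by 0.61 to 1.14 in 2DG+CC, by 0.55 to 1.14 in 2DG+VST and by 0.02 to 0.39 in 2DG+Phen.

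Core histone H3, its variant H3.3 left out, had 1 expressed probe set of 11. 206110_at, which lists 10 H3 genes, had 5.50 in 2DG+CC, 7.51 in 2DG+VST and 4.96 in 2DG+Phen, against 4.05 in 2DG. The difference in 2DG+VST was 3.46, and this array alone passed 6. H3C2 (208576_s_at) stayed under 6 and had 4.99 in 2DG+CC, 5.81 in 2DG+VST and 4.20 in 2DG+Phen, against 2.49 in 2DG, so it was higher by at least 1.87, 2.68 and 1.07. H3C3 (208577_at) had 4.84 in 2DG+CC, 5.83 in 2DG+VST and 4.50 in 2DG+Phen, against 3.57 in 2DG. In these 3 H3 signals the array with the highest value was 2DG+VST, but H3C2 and H3C3 were named after their values were seen. Other H3 probe sets under 6 were not highest there. H3C6 (214616_at) had 3.65 in 2DG+VST and 4.01 in 2DG+Phen, and H3-4 had 3.53 in 2DG+VST and 3.78 in 2DG+CC.

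Core histone H4 had 3 expressed probe sets of 16, and these went opposite ways. 208580_x_at, which lists 14 H4 genes, had 6.82 in 2DG+CC, 7.40 in 2DG+VST and 6.23 in 2DG+Phen, against 4.47 in 2DG. H4C11 (214463_x_at) had 6.74, 7.60 and 6.60 on these arrays, against 5.28 in 2DG. 205967_at, which also lists 14 H4 genes, had 11.56 in 2DG+CC, 11.29 in 2DG+VST and 11.54 in 2DG+Phen, against 12.29 in 2DG. This probe set was thus lower on each of them, just short of 2-fold in 2DG+VST, while the other 2 were higher by 1.32 to 2.93. It was at 12.19 in CC, 12.41 in VST and 12.39 in Phen, against 12.71 in Control.

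**Figure D3:**
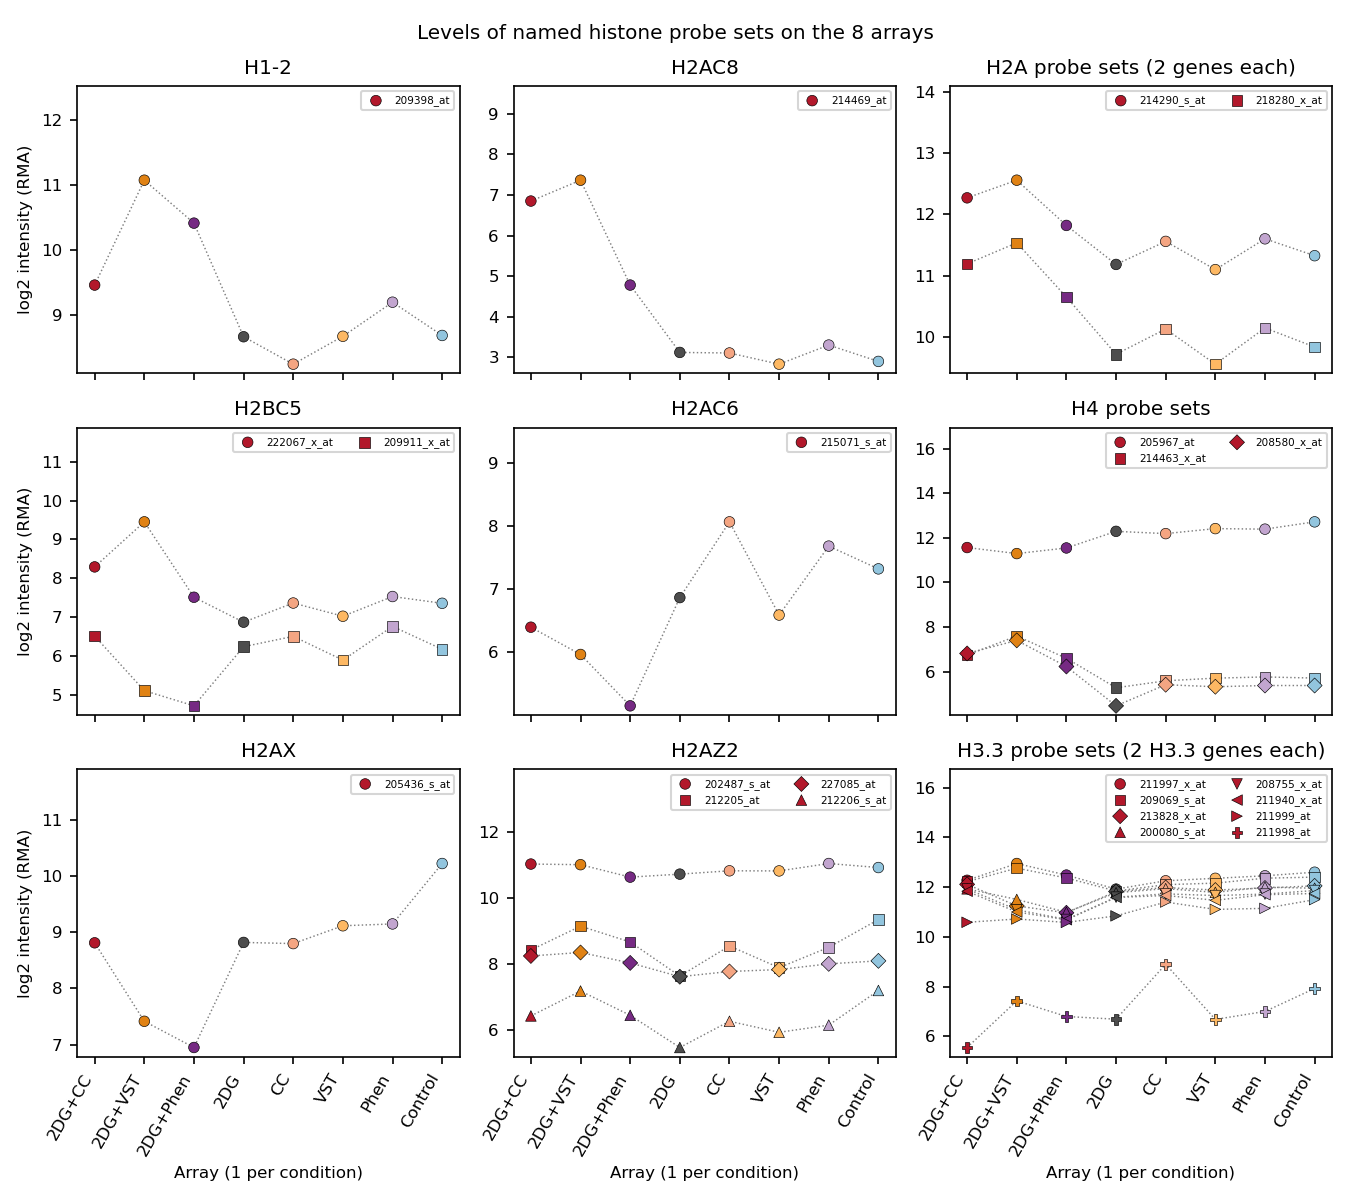
Log2 intensity of named histone probe sets on the 8 arrays, 1 point per array (marker shape for the probe set, colour for the condition, dotted lines only to guide the eye), with 2DG with a compound on the left and Control on the right. The panels show H1-2 highest at 11.08 in 2DG+VST, H2AC8 at 4.78 to 7.37 in 2DG with a compound and at 3.31 or less on the other arrays, the 2 H2BC5 probe sets moving apart, and H2AX highest on Control at 10.23.

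Fewer probe sets of the replication-independent variants were 2-fold higher in 2DG with a compound, 6 of 21 in 2DG+VST and at most 1 in the others. In 2DG+CC none was higher and 1 lower, with a median of 0.31, where 11.0% of all expressed probe sets were higher and 23.0% lower. In 2DG+VST 6 were higher and 1 lower, with a median of 0.53, where 6.95% of all were higher and 18.3% lower. In 2DG+Phen 1 was higher and 1 lower, with a median of 0.11, where 7.35% of all were higher and 20.2% lower. Against Control, 4 of the 21 were lower and none higher in 2DG, with a median of −0.38, where 2.53% of all were lower. In CC 2 were lower, in VST 4 and in Phen 2, with none higher, where 2.86%, 3.37% and 3.09% of all were lower. Scaled on the poly-A controls, the counts higher and lower became 0 and 5 in 2DG+CC, 1 and 5 in 2DG+VST, and 0 and 5 in 2DG+Phen, where 58.2%, 36.5% and 33.5% of all expressed probe sets were lower. Against Control this scaling gave 5 lower in 2DG, 3 in CC, 4 in VST and 4 in Phen, with none higher. Of all expressed probe sets 6.75%, 3.99%, 3.54% and 8.79% were then lower.

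**Figure D4:**
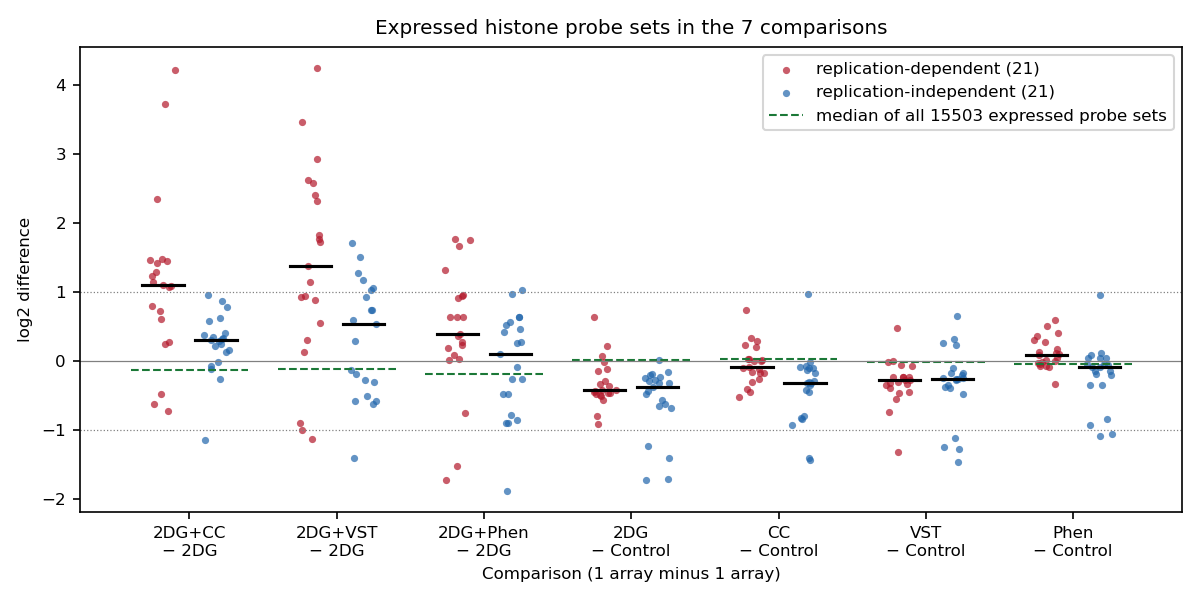
Log2 differences in the 7 comparisons, each of 1 array minus 1 array, with a point for each of 21 replication-dependent (red) and 21 replication-independent (blue) expressed histone probe sets, black bars at their medians, dotted lines at 2-fold and a green dashed line at the median of all 15503 expressed probe sets. The red medians are 1.10 in 2DG+CC, 1.38 in 2DG+VST and 0.39 in 2DG+Phen, against −0.42 in 2DG.

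H2AX, the H2A variant that is phosphorylated at DNA breaks and whose gene can give both a stem-loop and a polyadenylated mRNA, was read by 1 expressed probe set, 205436_s_at, which was below Control on all 7 other arrays. It had 8.81 in 2DG+CC, 7.41 in 2DG+VST and 6.95 in 2DG+Phen, against 8.82 in 2DG. It had 8.80 in CC, 9.12 in VST and 9.15 in Phen, against 10.23 in Control. The difference from Control was −1.41 in 2DG, −1.43 in CC, −1.11 in VST and −1.08 in Phen. From 2DG it was −0.01 in 2DG+CC, −1.41 in 2DG+VST and −1.88 in 2DG+Phen, so that 2DG+CC stayed at the level of 2DG. A second H2AX probe set, 213344_s_at, which stayed under 6, had 5.37 in 2DG+CC, 4.55 in 2DG+VST and 3.90 in 2DG+Phen, against 4.95 in 2DG. It had 5.84 in Control, its highest value as well. A further one, 212524_x_at, was near background, at 3.26 in Control and 3.45 to 3.77 on the other arrays, where Control was its lowest.

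H2A.Z replaces H2A at active promoters and is made by 2 genes. The 4 probe sets of H2AZ2 fell into 2 kinds. By 212205_at it had 8.43 in 2DG+CC, 9.15 in 2DG+VST and 8.67 in 2DG+Phen, against 7.64 in 2DG. It had 8.55 in CC, 7.89 in VST and 8.51 in Phen, against 9.35 in Control. Its lowest array was 2DG, 1.71 below Control, and 2DG+VST was 1.51 above 2DG. A second probe set, 212206_s_at, moved alike, by −1.73 in 2DG, 0.96 in 2DG+CC, 1.71 in 2DG+VST and 0.98 in 2DG+Phen. The one with the highest mean, 202487_s_at, lay between 10.63 and 11.05 on all 8 arrays, and 227085_at differed by at most 0.73. H2AZ1 (213911_s_at) had 12.46 in 2DG+CC, 12.38 in 2DG+VST and 12.31 in 2DG+Phen, against 12.57 in 2DG, and its difference passed 2-fold in no comparison.

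MacroH2A, an H2A with a large extra domain that is found on silent chromatin, was read by 3 expressed probe sets of MACROH2A1. The one with the highest mean, 207168_s_at, lay between 10.90 and 11.48 on all arrays. By another, 214500_at, the array CC was the lowest of the 8, at 4.59, and Phen the highest, at 6.96. It had 6.25 in 2DG+CC, 6.44 in 2DG+VST and 5.85 in 2DG+Phen, against 5.38 in 2DG. Its difference was −1.41 in CC, where 207168_s_at had −0.41, and 1.06 in 2DG+VST, where 207168_s_at had 0.53.

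H2AJ, an H2A variant, was more than 2-fold higher in 2DG+VST by both of its expressed probe sets, and 2 more were not above background on any array. By 224301_x_at it had 8.99 in 2DG+CC, 9.69 in 2DG+VST and 9.05 in 2DG+Phen, against 8.41 in 2DG. It had 7.89 in CC, 8.96 in VST and 8.77 in Phen, against 8.73 in Control. The differences in 2DG+VST were 1.27 and, by 225245_x_at, 1.18, and those in CC were −0.84 and −0.82, short of 2-fold. H1-10, a replication-independent linker histone, had 8.62 in 2DG+CC, 7.87 in 2DG+VST and 8.01 in 2DG+Phen, against 8.49 in 2DG, and was called in no comparison.

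Histone H3.3, the variant placed in active genes outside S phase, was read by 8 expressed probe sets that each list several genes, so none is given to one gene. Of these, 4 list a histone pseudogene with the H3.3 genes, and they differed from 2DG by 0.16 to 0.33 in 2DG+CC, by −0.58 to −0.27 in 2DG+VST and by −0.90 to −0.79 in 2DG+Phen. The other 4 list a microRNA gene with them. Of those, 211997_x_at had 12.27 in 2DG+CC, 12.95 in 2DG+VST and 12.48 in 2DG+Phen, against 11.92 in 2DG, and 209069_s_at differed by 0.38, 0.92 and 0.53. In the same group, 211999_at differed from 2DG by −0.26 in 2DG+CC, −0.13 in 2DG+VST and −0.26 in 2DG+Phen. So H3.3 signals were higher or lower in 2DG+VST according to the probe set, also within this group. One more, 211998_at, had 5.55 in 2DG+CC, 7.42 in 2DG+VST and 6.80 in 2DG+Phen, against 6.69 in 2DG. It had 8.90 in CC and 6.68 in VST, against 7.92 in Control, and it was the 1 replication-independent probe set lower in 2DG+CC. CENPA, the H3 of centromeres, which the rule for histone genes does not take, had 6.60 in 2DG against 7.65 in Control and was 0.49 to 0.78 above 2DG on the arrays of 2DG with a compound.

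Histone transcription is started by NPAT, which cyclin E and CDK2 phosphorylate, with CASP8AP2 (FLASH) beside it. A set of proteins including SLBP, LSM10, LSM11 and ZNF473 then cuts the transcript after the stem-loop. Of 25 expressed genes of this group, 2 were higher and 8 lower in 2DG+CC, none was higher and 4 lower in 2DG+VST, and 1 was higher and 4 lower in 2DG+Phen. Of all expressed probe sets 23.0%, 18.3% and 20.2% were lower on these arrays, so the count of lower genes was somewhat above the background in 2DG+CC and near it in 2DG+VST and 2DG+Phen. In 2DG 2 were higher and 1 lower, in CC 2 were higher, and in VST and in Phen 2 were lower. Of all expressed probe sets 3.19% were higher and 2.53% lower in 2DG, and 4.32% were higher in CC. In VST 3.37% of them were lower and in Phen 3.09%. NPAT had 2.81 in 2DG+CC, 2.76 in 2DG+VST and 3.50 in 2DG+Phen, against 5.97 in 2DG, and 6.57 in Control. On 2DG+CC and 2DG+VST it was not above background, so it was lower than in 2DG by at least 2.74 on both, and by 2.48 in 2DG+Phen. Whether the NPAT level bears on the histone signals was not tested.

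CASP8AP2 had 3.74 in 2DG+CC, 4.60 in 2DG+VST and 4.64 in 2DG+Phen, against 6.13 in 2DG. CCNE2, a cyclin E, had 2.72 in 2DG+CC, 4.49 in 2DG+VST and 4.36 in 2DG+Phen, against 5.63 in 2DG, and 4.52 in VST and 7.30 in CC, against 7.43 in Control. Like NPAT, both were lower with each compound in 2DG. ZNF473, which takes part in the cut, had 9.47 in 2DG+CC, 7.55 in 2DG+VST and 9.12 in 2DG+Phen, against 7.41 in 2DG. SLBP, which binds the stem-loop, had 9.66 in 2DG+CC, 9.29 in 2DG+VST and 9.19 in 2DG+Phen, against 9.30 in 2DG, differences of 0.36 or less. Between these genes the signs thus differed, and the group's median was −0.40 in 2DG+CC, −0.14 in 2DG+VST and −0.28 in 2DG+Phen.

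Histone chaperones hand new histones to DNA or exchange them. Of 30 expressed, none was higher and 5 lower in 2DG+CC, 2 were higher and 5 lower in 2DG+VST, and 1 was higher and 5 lower in 2DG+Phen. These counts of lower genes were near the shares of all expressed probe sets, 23.0%, 18.3% and 20.2% lower. Without a compound in 2DG 3 were lower, and in CC, VST and Phen 1, 2 and 2 were lower. The shares of all expressed probe sets lower were 2.53% in 2DG, 2.86% in CC, 3.37% in VST and 3.09% in Phen. ASF1A, which binds H3 and H4, had 5.46 in 2DG+CC, 5.65 in 2DG+VST and 5.85 in 2DG+Phen, against 8.24 in 2DG. It had 8.17 in CC, 8.54 in VST and 7.75 in Phen, against 8.37 in Control. The 3 arrays of 2DG with a compound stood apart from the other 5. UBN1 and HIRA, of the complex that places H3.3, differed from 2DG by −1.47 and −1.24 in 2DG+VST and by −1.41 and −1.24 in 2DG+Phen, and by 0.35 and 0.29 in 2DG+CC. EP400, part of an H2A.Z exchange complex, was lower by 2.33 in 2DG+CC.

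Genes of DNA replication and S phase had medians below 0 in each condition against Control. Of 39 expressed, 10 were lower in 2DG, 4 in CC, 15 in VST and 5 in Phen, with none higher and medians of −0.75, −0.54, −0.97 and −0.60. Of all expressed probe sets 2.53%, 2.86%, 3.37% and 3.09% were lower in these comparisons. In 2DG+VST 9 were higher and none lower than in 2DG, with a median of 0.55, and in 2DG+Phen 3 were higher and 2 lower, with a median of 0.38. Of all expressed probe sets 6.95% were higher and 18.3% lower in 2DG+VST, and 7.35% and 20.2% in 2DG+Phen. In 2DG+CC 3 were higher and 11 lower, with a median of 0.02, where 11.0% of all expressed probe sets were higher and 23.0% lower, so that both counts were near the background. CCNA2, cyclin A of S phase, had 6.72 in 2DG+CC, 9.99 in 2DG+VST and 9.65 in 2DG+Phen, against 8.40 in 2DG. RRM2, a subunit of the enzyme that makes deoxynucleotides, had 10.13 in 2DG+CC, 10.97 in 2DG+VST and 10.75 in 2DG+Phen, against 9.38 in 2DG. GINS1, of the replicative helicase, differed from 2DG by −2.42 in 2DG+CC and 0.20 in 2DG+VST. Their part in the histone differences was not tested, and the arrays cannot tell a change in the share of cells in S phase from a change in RNA per cell.

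**Figure D5:**
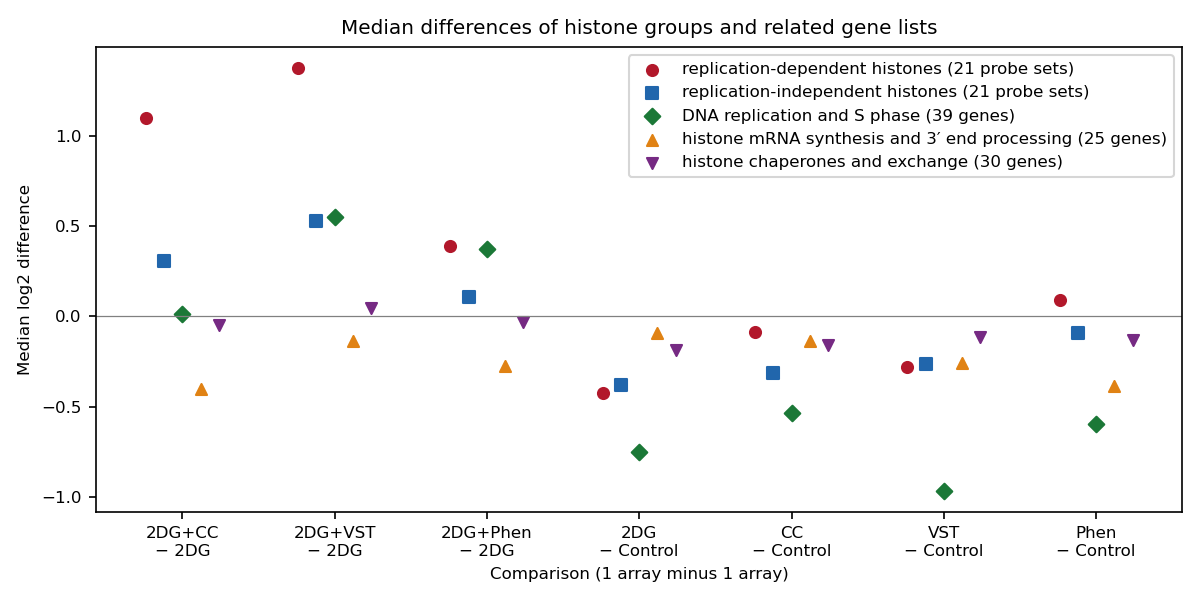
Median log2 difference of expressed members in the 7 comparisons for 5 groups: replication-dependent and replication-independent histone probe sets (21 each), and the genes of DNA replication, histone mRNA synthesis and histone chaperones (39, 25 and 30). In 2DG+CC the replication-dependent histones are at 1.10 and the replication genes at 0.02, and in 2DG+VST they are at 1.38 and 0.55.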

How the data were processed

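The authors deposited 1 log2 intensity per probe set and array, processed with RMA according to the submitters' notes. Its software is not given in the sources used here. Nothing was added to them before differences were taken, and all their columns were used. Symbols were taken from the annotation of the platform, in which 41097 probe sets carry 1 symbol, 1801 several and 11777 none, and older histone names were matched through RefSeq. Each of 7 comparisons set 1 array against 1 array, with no test. A probe set was called from a 2-fold difference at a log2 value of 6 or more on at least 1 array. Named are all replication-independent variants that were expressed, the histone probe sets with the 5 largest differences in each direction per comparison, and up to 4 genes of each list. Genes outside these rules, such as SLBP, H2AC25, H2BC12, CENPA and those under the limit, were named after their values were seen. The members and lists were chosen with earlier results of these data known. Alternatives were a 1.5-fold threshold, no limit on level, centring, scaling on the median of each array's 24 poly-A control probe sets, probe sets of 1 transcript, 1 probe set per gene and another probe set of the gene. The calls were checked on simulated data. Python 3.11.15, numpy 2.4.6, pandas 2.3.3 and matplotlib 3.10.9 were used.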

Additional observations from a re-analysis of the deposited data

Results flagged for a closer look

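Histone signals that were at least 2-fold lower with a compound in normal medium and at least 2-fold higher with it in 2DG were 3 probe sets, all with versipelostatin. Of these 3, 2 read H2AZ2. No share of all expressed probe sets was taken for this pattern, so the count has no background beside it. The H3 probe set 206110_at differed by −1.32 in VST against Control and by 3.46 in 2DG+VST against 2DG. It reached the limit for expressed probe sets on the 2DG+VST array alone, at 7.51, with 5.50 in 2DG+CC as its next value. The array on which it was higher was thus also the one through which it was counted as expressed. Its value in VST was 3.53, close to that array's median of 3.17. H2AZ2 differed by −1.46 and 1.51 by 212205_at, and by −1.27 and 1.71 by 212206_s_at. Its probe set with the highest mean, 202487_s_at, did not pass 2-fold in either comparison. With phenformin 2 of the same probe sets came near: 212206_s_at differed by −1.05 in Phen and by 0.98 in 2DG+Phen, and 212205_at by −0.84 and 1.03. Each value rests on 1 array minus 1 array, and the difference between the comparisons was not tested.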

How the results depend on the processing

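No paired analysis was possible because each condition has 1 array. Counts here are of all 42 expressed histone probe sets, with 13 higher and 1 lower in 2DG+CC, 18 and 2 in 2DG+VST, 5 and 3 in 2DG+Phen, and none higher with 4, 2, 5 and 2 lower in 2DG, CC, VST and Phen. Of 126 other counts, 57 moved by more than 1.5 times.

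Scaling on the poly-A controls gave 3 higher and 8 lower in 2DG+CC, 11 and 8 in 2DG+VST, and 3 and 8 in 2DG+Phen, with 7 lower in 2DG and 4 in Phen. Of all expressed probe sets 2.85%, 3.12% and 4.08% were then higher in 2DG+CC, 2DG+VST and 2DG+Phen. Lower were 58.2%, 36.5% and 33.5% on these arrays, 6.75% in 2DG and 8.79% in Phen. The median in 2DG+CC went below 0, at −0.55 where it was 0.49 as deposited. That of all expressed probe sets was −1.17 where it was −0.13 as deposited. Scaling on the median of the paired poly-A differences, chosen after seeing the data, gave 3 higher and 5 lower in 2DG+CC, 8 lower in 2DG+VST and in 2DG+Phen, 8 lower in 2DG and 4 in Phen. Of all expressed probe sets 3.43% were then higher in 2DG+CC. Lower were 50.1% in 2DG+CC, 32.4% in 2DG+VST, 29.2% in 2DG+Phen, 7.21% in 2DG and 8.12% in Phen. Centring gave 0 lower in 2DG+CC, 1 lower in 2DG+VST, 9 higher in 2DG+Phen and 1 higher in Phen. Of all expressed probe sets 18.9% and 13.6% were then lower in 2DG+CC and 2DG+VST, and 11.5% and 3.11% higher in 2DG+Phen and Phen.

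At 1.5-fold, 20 were higher and 3 lower in 2DG+CC, 5 lower in 2DG+VST, and 14 higher and 8 lower in 2DG+Phen. It gave 1 higher and 9 lower in 2DG, 2 and 6 in CC, 1 higher in VST, and 2 and 4 in Phen. At this threshold no share of all expressed probe sets was taken. With no limit on level, 25 of 108 were higher in 2DG+CC, 30 in 2DG+VST and 2 in CC. Of all 54613 probe sets 4.93% were higher in 2DG+CC and 3.18% in 2DG+VST, and no such share was taken for CC.

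With 8 probe sets of 1 transcript, 1 was higher and 0 lower in 2DG+CC, 4 and 0 in 2DG+VST and 3 and 0 in 2DG+Phen, with 1 lower in 2DG, CC and VST and 0 in Phen. With 25 probe sets, 1 per gene, 0 were lower in 2DG+CC, 1 in 2DG+VST, 1 in 2DG, CC and Phen and 2 in VST, and 3 were higher in 2DG+Phen. Both use fewer probe sets, and no share of all probe sets was taken for either choice. Of all expressed probe sets 11.0%, 6.95% and 7.35% were higher in 2DG+CC, 2DG+VST and 2DG+Phen. The next 2 limits were chosen after seeing the data, and no share of all probe sets was taken for them. A mean of 6 over the 8 arrays (36 probe sets) left 8 higher in 2DG+CC, 3 higher in 2DG+Phen and 1 lower in 2DG+VST. A value of 6 on the Control array (35 probe sets) left 7 higher in 2DG+CC, 11 in 2DG+VST and 2 in 2DG+Phen, and 1 lower in CC.

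Another probe set of the gene turned the sign of H2BC5 in 2DG+VST (2.58 in place of −1.13, and −1.13 in place of 2.58) and in 2DG+Phen (0.64 in place of −1.52), and of H2AZ2 in Phen (0.12 in place of −1.05) and in 2DG+Phen (−0.091 in place of 1.03). The cause was not tested. Signals near the background of an array give bounds only, and the precision of every difference is limited by 1 array a condition.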
